A study of Mus musculus and Homo sapiens with 59 samples.

Results

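The early growth response factors Egr1, Egr2 and Egr3 and the Nab corepressors Nab1 and Nab2 were followed through all libraries of a study of plasma membrane permeabilization. The members were taken by gene symbol alone, and all 5 have a row in the mouse table of 19407 genes and, as EGR1, EGR2, EGR3, NAB1 and NAB2, in the human table of 22192 genes. Polyadenylated RNA was measured in 59 libraries of 4 cell lines: NIH3T3 mouse fibroblasts (35 libraries), LLC mouse lung carcinoma cells (16), and 2 human carcinoma lines, HT29 of the colon (4) and BxPC3 of the pancreas (4). Of the 30 groups, 29 held 2 libraries.

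Egr proteins are zinc finger transcription factors that bind GC-rich sites, and their genes belong to the immediate early genes, which are transcribed within minutes of a growth factor, calcium or stress signal without new protein synthesis. ERK signaling through serum response factor (SRF) and its ternary complex factor partners at CArG boxes is the best known route to Egr1 transcription. Nab1 and Nab2 bind a repression domain that Egr1, Egr2 and Egr3 share, recruit subunits of the NuRD chromatin remodeling complex and dampen Egr-driven transcription. Nab2 is itself described as an Egr target, so that the corepressor forms a feedback loop on its activators, while Nab1 is regarded as the more constitutive partner.

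All cells were grown in DMEM, and the groups differ in construct, medium, perturbation and agent. NIH3T3 and LLC cells carried no construct (parental), the fusion hMLKL1–181-2Fv, or the fusion mGSDMD1-276-HBD. The first is an amino-terminal piece of human MLKL, the pore-forming protein of necroptosis, on a dimerizable domain. The other is an amino-terminal piece of mouse GSDMD, the pore-forming protein of pyroptosis, on a hormone-binding domain. MLKL cells of both lines and parental NIH3T3 cells received the dimerizer AP20187 (100 nM, 1 h), and GSDMD cells of both lines and parental LLC cells received 4OHT, a tamoxifen metabolite (50 nM, 2.5 h). The detergent digitonin was given to parental NIH3T3 and LLC cells at 55 µg/mL for 3 h, and to HT29 and BxPC3 cells, which had no construct, at 40 µg/mL for 2 h. NIH3T3 MLKL cells were also held in calcium-free DMEM, given siRNAs named siCTR or siPKC, or compared as p65ko and noko cells, each with and without AP20187. The labels do not say whether a construct or knockout line is a single clone, which isoforms siPKC targets, or whether a group's libraries stem from different cultures. The p-values therefore reflect the spread between the deposited libraries alone, and that spread may be technical.

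In the mouse genome (mm10, GENCODE vM21 annotation) Egr1 (ENSMUSG00000038418.7) lies on chromosome 18 at 34859823 to 34864984, Egr2 (ENSMUSG00000037868.15) on chromosome 10 at 67535475 to 67542188, and Egr3 (ENSMUSG00000033730.4) on chromosome 14 at 70077203 to 70082614, all on the plus strand. On the minus strand lie Nab1 (ENSMUSG00000002881.14), on chromosome 1 at 52457294 to 52500679, and Nab2 (ENSMUSG00000025402.12), on chromosome 10 at 127660918 to 127668568. The Nab2 gene overlaps Stat6 by 40 bases, and also Nemp1 and the antisense transcript Gm16229, all on the opposite strand. Whether the libraries keep strand is not given in the sources used here, so some reads given to Nab2 could come from these neighbors.

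Levels are TPM, the length-corrected share of each gene in a library total scaled to 1000000, so that different genes can be compared. TPM keep no sequencing depth, so neither depth nor counting error is known. Changes are differences of log2(TPM + 1) with standard errors (SE) from limma, which understate the change of low genes, and a gene passed where its p, adjusted over all genes of a comparison (Benjamini-Hochberg), was under 0.05. Between replicates, log2 values correlated across genes (which are not independent replicates) at 0.989 to 0.996. A change in the RNA of a whole culture cannot tell more transcript per cell from more responding cells.

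Some checks of the labels bear on what follows. Rela, which encodes p65, stood at 13.6 and 14.1 TPM in untreated p65ko cells against 49.7 and 49.2 in noko cells, and Prkca, a protein kinase C gene, at 7.46 and 8.05 TPM after siPKC against 31.0 and 32.7 after siCTR. Gsdmd, whose reads include the construct, reached 376 and 377 TPM in untreated LLC GSDMD cells, against 22.6 and 22.6 in untreated parental cells. The 4 libraries labelled LLC without a construct in the digitonin experiment, however, held 326 to 337 TPM of Gsdmd, a level that goes against that label. In NIH3T3 cells the untreated set of the digitonin experiment also stood apart from the other untreated parental set, with 76.1% of 11546 genes past the threshold between them. Changes of the members with digitonin in the mouse lines are therefore given against both untreated sets. Gene lists, counts over arms and figures use only the untreated set of the digitonin experiment. In LLC cells the other set also differs from the digitonin libraries in Gsdmd, so effects of digitonin and of the cells cannot be told apart against it. Fibroblast markers summed to 829 to 3492 TPM in NIH3T3 libraries, with all 5 detected. In LLC cells 3 of 5 epithelial markers averaged over 1 TPM, Epcam and Cdh1 were under 1 TPM, and fibroblast markers summed to at most 5.75 TPM. All 5 epithelial markers were present in both human lines. Of 4 leukocyte markers, Ptprc and Adgre1 averaged under 1 TPM in every line. The others, Csf1r and Cd68, both averaged over 1 TPM in NIH3T3 cells, and only Cd68 did in the remaining lines. The list summed to 7.14 to 24.6 TPM in NIH3T3, 2.33 to 8.66 in LLC, 15.7 to 21.5 in HT29 and 16.1 to 20.8 in BxPC3 libraries, and its part in the results was not tested.

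Start-site windows (250 bases before to 50 after each start, RefSeq, GRCm38.p6) were at hand for Egr2, Nab1 and Nab2, and were searched on both strands for a CArG box, the SRF motif, for the Egr motif GCGTGGGCG, for its first 8 bases GCGTGGGC, which lie within it, and for the CREB motif TGACGTCA. A CArG box occurred in 4 of the 5 Egr2 windows and in no Nab window, against 1.63% of all 32851 windows. Of those 4 windows, 3 overlap and hold the same site, so there are 2 distinct sites. Both Nab windows held the Egr motif in its short form, against 1.63% of all windows, and Nab1 held 2 copies of the full motif, against 0.612%. TGACGTCA, found in 1.79% of windows, was in none of the 7. A match describes these letters only and says nothing of binding in these cells. The stretches around the matches are shown because they set the SRF-type element of an activator beside the Egr-type elements of its corepressors. Each is read 5′ to 3′ on the gene's own strand with the match in capitals. The Egr2 stretch covers bases 150 to 1 before a start (chr10:67537719-67537868), the Nab2 stretch bases 160 to 11 before the start (chr10:127666714-127666863). The Nab1 sites lie 151 to 122 bases (chr1:52500570-52500599) and 119 to 90 bases (chr1:52500538-52500567) before the RefSeq start, inside the longer first exon of the GENCODE model. In the Nab2 stretch and in the distal Nab1 stretch the Egr motif is on the opposite strand and so reads as its reverse complement.
Egr2: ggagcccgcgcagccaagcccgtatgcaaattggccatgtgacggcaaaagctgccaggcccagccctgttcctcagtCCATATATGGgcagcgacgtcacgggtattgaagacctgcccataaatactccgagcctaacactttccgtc
Nab2: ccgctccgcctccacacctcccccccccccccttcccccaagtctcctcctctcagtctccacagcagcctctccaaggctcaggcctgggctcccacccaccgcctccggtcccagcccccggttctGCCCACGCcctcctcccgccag
Nab1 distal: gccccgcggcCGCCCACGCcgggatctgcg
Nab1 proximal: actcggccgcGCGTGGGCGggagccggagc

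At rest, the corepressor transcripts outweighed the activators in every untreated group except the calcium-free cells. In untreated parental NIH3T3 cells Nab2 (89.7 and 91.7 TPM) stood above Nab1 (35.3 and 33.2), Egr1 (6.43 and 6.05), Egr3 (6.03 and 5.28) and Egr2 (0.874 and 1.05). The nearest Egr1 and Egr3 libraries stood at 6.05 and 6.03 TPM, so this pair is not clearly apart, while all other neighbors in the order are. The summed TPM of the 3 Egr genes was 0.103 ± 0.005 (SD, n = 2) of the summed TPM of the 2 Nab genes. LLC cells had the same 2 Nab genes on top. Egr3 (8.38 and 6.77 TPM) lay clearly above Egr1 (1.19 and 1.53) there, and Egr2 (0.102 and 0.0345) was close to 0. Untreated NIH3T3 MLKL cells also held more Egr3 (7.83 and 8.83 TPM) than Egr1 (4.32 and 4.19). Egr1 was 2.34 higher in untreated parental NIH3T3 than in LLC cells on the log2 scale (SE 0.06, adjusted p = 7.1e-25, both untreated sets, with 85.1% of 12312 genes passing) and Nab2 0.52 higher (SE 0.03, adjusted p = 5.68e-16). For Egr3 the difference between these lines was 0.00 (95% interval -0.11 to 0.11), and for Nab1 0.10 (adjusted p = 0.00782). These values pool the LLC libraries with high Gsdmd. Without the untreated sets of the digitonin experiment the difference was 1.62 for Egr1, -0.36 for Egr3 (adjusted p = 0.000109), 0.55 for Nab1 and 0.61 for Nab2.

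In the human lines EGR1 made up nearly all of the resting Egr transcripts. HT29 cells held 12.0 and 12.1 TPM of EGR1, and BxPC3 cells 11.3 and 11.6. EGR2 lay between 0.125 and 0.512 TPM in the 4 untreated human libraries, and EGR3 was listed at 0 in both untreated HT29 libraries and stood at 0.584 and 0.467 TPM in BxPC3. Unlike the mouse lines, both human lines had more NAB1 than NAB2: 22.3 and 21.7 against 16.1 and 14.5 TPM in HT29, and 35.4 and 35.7 against 12.4 and 12.5 in BxPC3. Between the lines NAB1 was 0.67 higher in BxPC3 (SE 0.05, adjusted p = 1.74e-05) and NAB2 0.28 lower (-0.28, SE 0.07, adjusted p = 0.00717), in a comparison where 80.2% of 13425 genes passed. The EGR1 difference of -0.07 did not pass (adjusted p = 0.0775).

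Resting Egr1 varied widely among the NIH3T3 lines. It was 4.32 and 4.19 TPM in MLKL cells, 31.2 and 29.6 in GSDMD cells, 11.7 and 14.4 after siCTR, 9.75 and 9.52 after siPKC, 19.6 and 20.2 in noko cells and 28.0 and 27.1 in p65ko cells. Thus GSDMD cells held 4.88 times the Egr1 of parental cells before any 4OHT (log2 difference 2.12, SE 0.07, adjusted p = 4.18e-16; 55.2% of 11620 genes passed), and MLKL cells held less than parental cells (-0.46, SE 0.07, adjusted p = 6.71e-06; 51.7% of 11655 genes passed). The parental line alone differed by 1.45 in Egr1 between its untreated sets (adjusted p = 2.45e-14), and its digitonin set, at 19.3 and 18.2 TPM, lay much closer to the GSDMD cells. The siCTR libraries fell between these parental sets, and the noko libraries just above the higher one. Against the set of the AP20187 experiment, Nab2 differed in the same directions as Egr1, 0.26 higher in GSDMD and 0.42 lower in MLKL cells (-0.42), while Egr3 differed the other way: -0.26 in GSDMD cells (adjusted p = 0.000968) and 0.49 in MLKL cells (adjusted p = 8.91e-07). The fall of Egr3 in GSDMD cells did not pass when only the 4 libraries compared were fitted (adjusted p = 0.0954). In LLC cells Egr1 was 1.10 higher in untreated MLKL than in parental cells (4.33 and 3.80 TPM, adjusted p = 5.63e-06), opposite to the difference in NIH3T3 cells. In untreated LLC GSDMD cells it was 0.50 lower than in parental cells (0.493 and 0.848 TPM, -0.50, adjusted p = 0.00175). Only the parental libraries reached 1 TPM there, so that entering the test implied a lower value and this difference supports nothing. Of all tested LLC genes, 57.7% and 61.7% passed in these comparisons. How long each line was grown apart from its parent is not given, and effects of the construct and of the line cannot be told apart.

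Dimerizing MLKL in NIH3T3 cells raised all 3 Egr genes within 1 h and changed the Nab genes little. Egr1 went from 4.32 and 4.19 TPM to 825 and 908, a ratio of 204, and its log2 change of 7.37 (SE 0.07, adjusted p = 3.46e-26) ranked 1 of 11644 genes. Egr2 went from 1.37 and 0.903 TPM to 27.6 and 29.6 (3.80, SE 0.12, adjusted p = 1.05e-16), and Egr3 from 7.83 and 8.83 TPM to 61.3 and 66.5 (2.80, SE 0.06, adjusted p = 1.49e-19). Untreated library 2 lay under 1 TPM of Egr2, so that entering the test depended on the treated libraries, where Egr2 is high. For each Egr gene the treated libraries lay far above the untreated ones. Nab2 rose slightly, from 68.4 and 66.4 TPM to 76.5 and 82.7 (0.24, SE 0.04, adjusted p = 0.000154). Nab1 stood at 36.0 and 36.7 TPM before and 37.7 and 35.5 after AP20187, overlapping values with a change of 0.01 (95% interval -0.10 to 0.11). The 4 members that rose compare with 15.8% of tested genes that rose.

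In parental NIH3T3 cells the same agent moved none of the 5 members past the threshold (limma), and 0.304% of 11504 genes passed. At an unadjusted p under 0.05, 1 of the 5 passed, Egr3, as did 724 of all 11504 genes. Egr1 was 6.43 and 6.05 TPM without and 6.40 and 6.81 with AP20187, a change of 0.07 (95% interval -0.07 to 0.21). Egr3 went from 6.03 and 5.28 to 4.90 and 4.62 TPM, groups that do not overlap (-0.21, 95% interval -0.33 to -0.08, unadjusted limits; adjusted p = 0.29). The response of MLKL cells exceeded that of parental cells for Egr1 by 7.29 (SE 0.09), for Egr2 by 3.72 (SE 0.17), for Egr3 by 3.01 (SE 0.08) and for Nab2 by 0.24 (SE 0.06), with adjusted p from 4.78e-23 to 0.00596, where 20.5% of 11931 genes differed. Nab2 missed the threshold in a fit of the 8 libraries alone (adjusted p = 0.0505). For Nab1 the responses differed by -0.01 (95% interval -0.15 to 0.14).

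**Figure D1:**
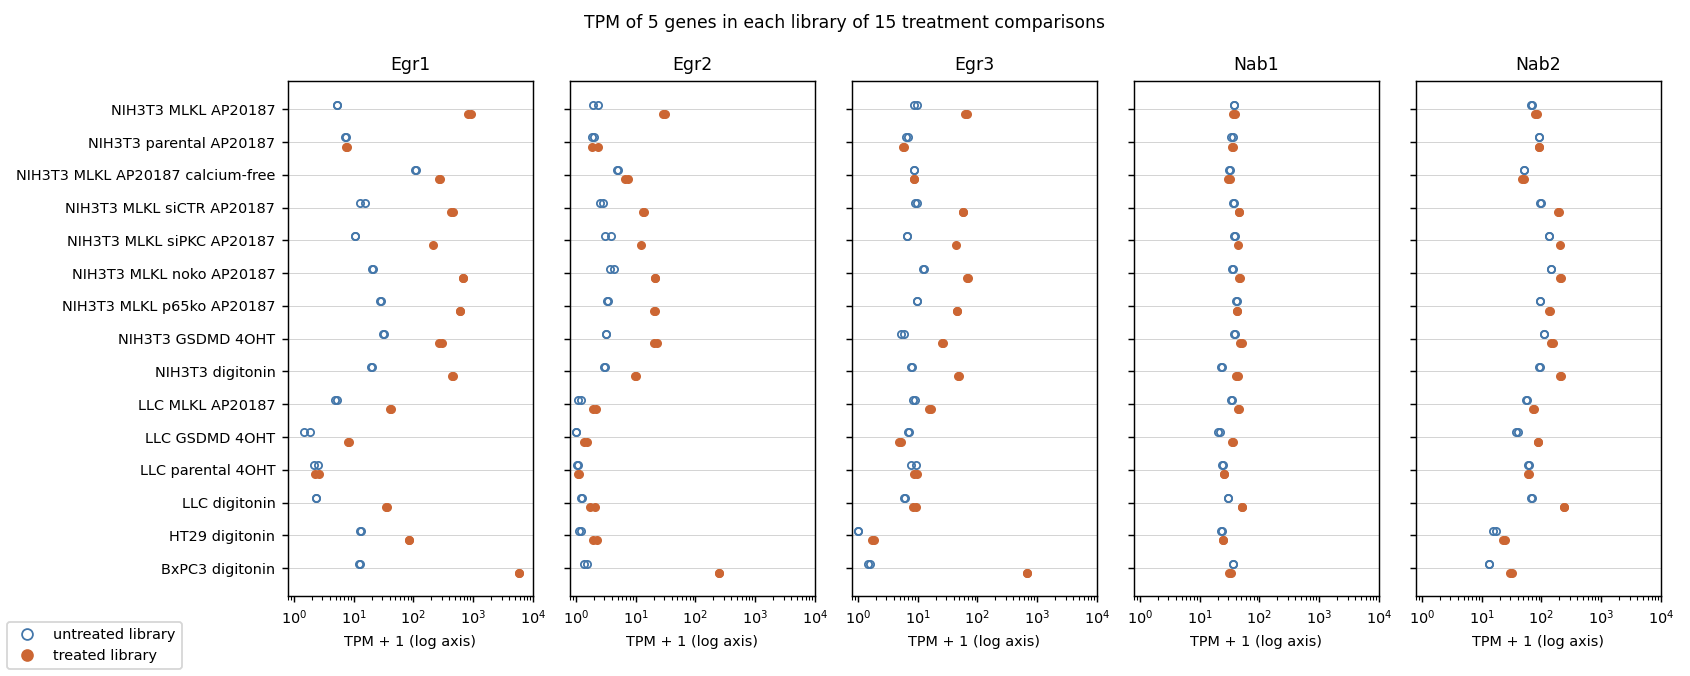
TPM + 1 on a log axis for the 5 genes (panels) in every library of the 15 treatment comparisons (rows); open blue points are untreated and filled orange points treated libraries. Egr1 treated libraries of MLKL, GSDMD and digitonin arms lie to the right of the untreated ones, from 7.01 TPM in LLC GSDMD to 5962 TPM in BxPC3 cells, while the Nab panels span a narrower range.

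**Figure D2:**
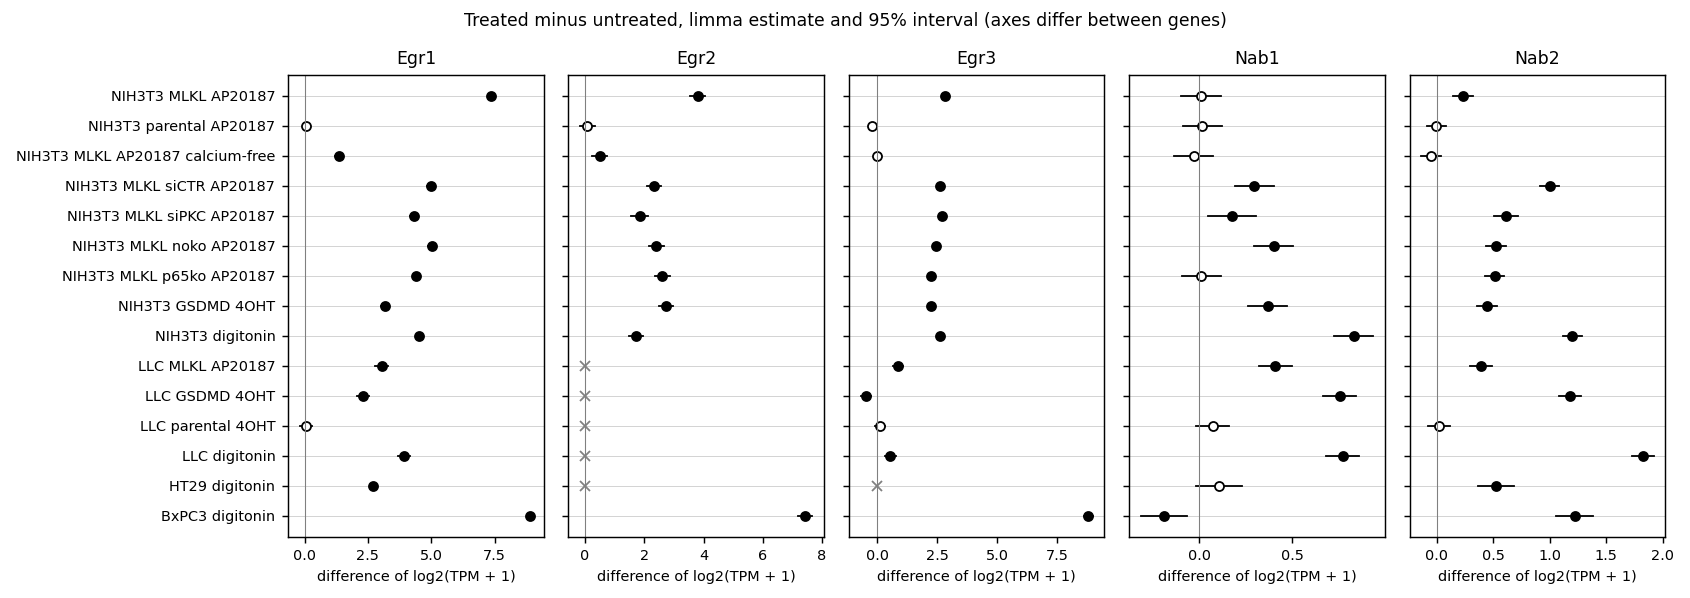
Treated minus untreated difference of log2(TPM + 1) with its 95% interval from limma, for each gene (panels, with axes of different length) and comparison (rows); filled points passed the threshold, open points did not, and grey crosses at 0 mark genes too low to be tested. The row of parental NIH3T3 cells and that of parental LLC cells hold no filled point, and Egr3 in LLC GSDMD cells is the only Egr point that passed below 0.

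In calcium-free medium the resting levels of Egr1 and Egr2 were higher and those of Nab1 and Nab2 lower. Egr1 was 105 and 108 TPM in untreated MLKL cells without calcium against 4.32 and 4.19 in complete medium, a ratio of 25.0. This difference of 4.35 (SE 0.07, adjusted p = 2.12e-21) ranked 1 of 11587 genes. Egr2 was 4.06 and 3.94 TPM against 1.37 and 0.903 (1.24, SE 0.12, adjusted p = 3.98e-08). With 0.903 TPM in complete-medium library 2, entering that test depended on the calcium-free libraries, where Egr2 is higher. Egr3 was not part of this shift: it stood at 7.83 and 7.75 TPM against 7.83 and 8.83, which overlap (-0.08, 95% interval -0.21 to 0.04). Nab1 fell from 36.0 and 36.7 TPM to 31.4 and 30.3 (-0.23, SE 0.05, adjusted p = 0.00107) and Nab2 from 68.4 and 66.4 TPM to 49.9 and 50.3 (-0.42, SE 0.04, adjusted p = 6.54e-08). After median centring the differences were -0.12 for Nab1 (limma, adjusted p = 0.0442) and -0.32 for Nab2. Of all genes tested, 8.55% were higher and 27.7% lower in calcium-free medium, with a median difference of -0.07. Untreated cells without calcium thus held 1.46 ± 0.039 Egr transcripts per Nab transcript (n = 2), compared with 0.132 ± 0.004 in complete medium. No parental cells in calcium-free medium are among the samples, so effects of the medium with and without the construct cannot be told apart.

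Adding AP20187 in calcium-free medium raised Egr1 again, to 266 and 277 TPM, 2.55 times its calcium-free resting level (1.34, SE 0.07, adjusted p = 2.34e-11). The change of Egr2, from 4.06 and 3.94 to 6.37 and 5.73 TPM, passed in the full model (0.49, SE 0.12, adjusted p = 0.0135) but not with a pseudocount of 0.1 (adjusted p = 0.0548), not with only the 4 libraries (adjusted p = 0.101), and not without untreated library 1 or 2 or treated library 1 (adjusted p = 0.0779, 0.0863 and 0.115). Egr3 stood at 7.83 and 7.75 TPM before and 7.70 and 7.80 after (-0.01, 95% interval -0.13 to 0.12). Nab1 (31.3 and 29.1 TPM) and Nab2 (47.1 and 49.8 TPM) changed by -0.03 and -0.05 without passing. Among all 11574 genes tested, 2.27% rose and 3.42% fell. The response was smaller than in complete medium by 6.02 for Egr1 (-6.02, SE 0.09), by 3.30 for Egr2 (-3.30, SE 0.17), by 2.80 for Egr3 (-2.80, SE 0.08) and by 0.28 for Nab2 (-0.28, SE 0.06), with adjusted p from 1.83e-21 to 0.0013. In that test 11.1% of 11865 genes were lower, and Egr1 had the lowest value of all of them. For Egr1 this smaller response starts from the higher resting level. The treated level itself was lower without calcium for all 5 members, at 0.313 of the complete-medium level for Egr1, 0.212 for Egr2, 0.121 for Egr3, 0.826 for Nab1 and 0.609 for Nab2, with adjusted p from 8.89e-20 to 0.000209 and 27.3% of 11638 genes lower.

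**Figure D3:**
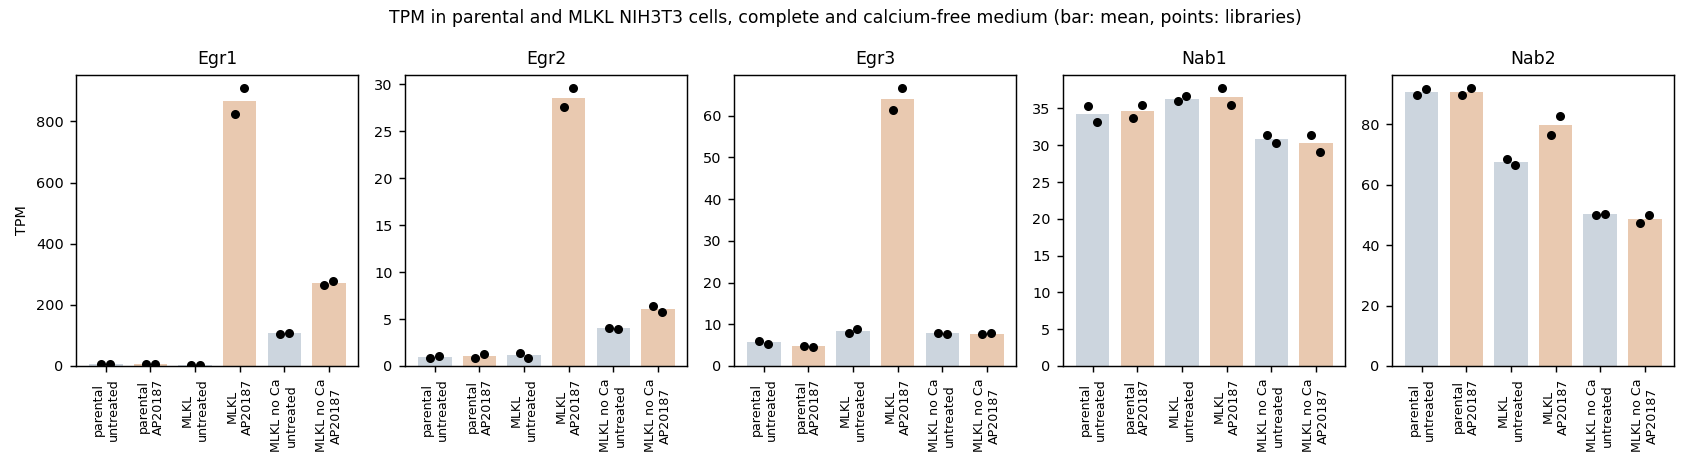
TPM of the 5 genes (panels, linear axes from 0) in parental and MLKL NIH3T3 cells, without and with AP20187, in complete and calcium-free (no Ca) medium; bars are means and points the 2 libraries. Egr1 without calcium is high before AP20187 (105 and 108 TPM), whereas Egr3 without calcium lies at 7.70 to 7.83 TPM with and without the dimerizer.

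All 5 members rose with AP20187 in MLKL cells given siCTR and in those given siPKC. After siCTR Egr1 went from 11.7 and 14.4 TPM to 453 and 432, and after siPKC from 9.75 and 9.52 TPM to 211 in the only treated library. Egr2 went from 1.88 and 1.496 to 12.6 and 12.5 TPM after siCTR and from 2.10 and 2.83 to 11.4 TPM after siPKC. In each case the treated libraries lay above all untreated ones. Egr3 went from 8.19 and 8.59 to 56.6 and 56.2 TPM after siCTR and from 5.63 and 5.67 to 42.4 TPM after siPKC. Nab2 rose after siCTR, from 95.7 and 95.03 TPM to 194 and 189 (a ratio of 2.01), and rose after siPKC from 133 and 134 TPM to 205. Shares of 13.7% (of 11410 genes) and 10.5% (of 11308) rose in these comparisons, and the median change of all genes was -0.19 and -0.14. The rise of Nab1 after siPKC, from 37.1 and 38.6 to 42.9 TPM (0.18, adjusted p = 0.0227), did not pass without untreated library 1 (adjusted p = 0.103) or in a fit of its own 3 libraries (adjusted p = 0.108).

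The response to AP20187 was smaller after siPKC than after siCTR for Egr1 (-0.67, SE 0.11, adjusted p = 0.000383) and Nab2 (-0.39, SE 0.07, adjusted p = 0.000764), in a comparison where 8.29% of 11689 genes differed. With 1 treated siPKC library, this test takes its spread from the other NIH3T3 groups. Fitted on the 7 libraries alone, neither passed (adjusted p = 0.151 and 0.0773). For Egr2 the difference was -0.49 (95% interval -0.88 to -0.11; adjusted p = 0.105), for Egr3 0.09 (-0.10 to 0.29) and for Nab1 -0.12 (-0.28 to 0.05). Before AP20187, siPKC cells already held less Egr1 (-0.40, adjusted p = 4.63e-05) and Egr3 (-0.50, adjusted p = 8.14e-07) and more Nab2 (0.48, SE 0.04, adjusted p = 5.03e-09) than siCTR cells, among 45.6% of 11533 genes that differed. Egr2 was 0.36 higher (adjusted p = 0.0155), a call that did not hold without siCTR library 2 (0.26, adjusted p = 0.157), without siPKC library 2 (0.21, adjusted p = 0.234) or in a fit of the 4 libraries alone (adjusted p = 0.156).

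In noko cells AP20187 took Egr1 from 19.6 and 20.2 TPM to 670.2 and 671, and in p65ko cells from 28.0 and 27.1 TPM to 604 and 604. Egr2 went from 3.33 and 2.67 to 20.4 and 19.8 TPM in noko cells and from 2.30 and 2.44 to 20.2 and 18.9 TPM in p65ko cells. Egr3 went from 11.7 and 11.2 to 68.2 and 67.1 TPM in noko and from 8.91 and 8.66 to 45.1 and 43.9 TPM in p65ko cells. Thus all 3 Egr genes rose in the cells with less Rela as well. Nab2 went from 144 and 144 to 209.6 and 205 TPM in noko and from 95.6 and 94.7 to 139.7 and 133 TPM in p65ko cells. All 5 members rose in noko cells, where 10.6% of 11682 genes did, and 4 in p65ko cells, where 8.99% of 11987 did. The response of Egr1 was smaller in p65ko cells (-0.60, SE 0.09, adjusted p = 0.000516), and so was that of Nab1 (-0.39, SE 0.07, adjusted p = 0.00229), where 4.10% of 12212 genes differed. Nab1 rose in noko cells, from 33.9 and 35.1 to 45.5 and 46.2 TPM, and in p65ko cells stood at 40.4 and 41.7 before and 41.2 and 41.6 after. That p65ko change of 0.01 passed as a rise once libraries were centred on their median (0.22, adjusted p = 0.000833), since the median of all genes there was -0.19. The Egr3 difference of -0.25 did not pass (adjusted p = 0.128), but did after median centring (-0.28, adjusted p = 0.0452) and in a fit of the 8 libraries alone (adjusted p = 0.033). Nab2 responses differed by -0.01 (95% interval -0.13 to 0.11), while its resting level was lower in p65ko cells: 95.6 and 94.7 TPM against 144 and 144 (-0.59, SE 0.04, adjusted p = 3.47e-10), in a comparison where 47.0% of 12000 genes differed. Resting Egr1 was higher there (0.45, adjusted p = 1.24e-05), as was Nab1 (0.24, adjusted p = 0.000467), and Egr3 lower (-0.35, adjusted p = 7.88e-05).

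GSDMD release by 4OHT in NIH3T3 cells raised all 5 members. Egr1 went from 31.2 and 29.6 TPM to 265 and 297 (3.16, SE 0.07, adjusted p = 4.21e-20), Egr2 from 2.17 and 2.25 to 19.0 and 21.7 TPM (2.73, SE 0.12) and Egr3 from 4.85 and 4.24 to 24.4 and 25.8 TPM (2.24, SE 0.06). As TPM ratios Egr1 and Egr2 gained nearly the same, 9.23 and 9.22. The corepressors rose less, Nab1 from 38.2 and 36.1 to 50.3 and 46.1 TPM (0.37, SE 0.05, adjusted p = 1.07e-06) and Nab2 from 108 and 110.1 to 142 and 157 TPM (0.45, SE 0.04, adjusted p = 2.76e-09). In this arm 20.0% of 11632 genes rose, 58.6% fell, and the median change was -0.29. No NIH3T3 parental cells given 4OHT are among the samples.

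Digitonin raised all 5 members in parental NIH3T3 cells as well. Egr1 went from 19.3 and 18.2 TPM to 463 and 445 (4.53, SE 0.07, adjusted p = 1.53e-22), Egr2 from 2.03 and 1.99 to 8.97 and 8.83 TPM and Egr3 from 6.62 and 7.04 to 47.7 and 46.0 TPM. Against this untreated set both corepressors had their highest log2 change among the NIH3T3 arms. For Nab2 this order depends on the scaling: after median centring its change was 1.05 with digitonin and 1.19 with AP20187 after siCTR. Nab2 went from 92.9 and 88.8 TPM to 213 and 208 (1.20, SE 0.04, adjusted p = 1.64e-16) and Nab1 from 22.0 and 22.9 TPM to 39.0 and 42.3 (0.83, SE 0.05, adjusted p = 3.03e-12), among 39.3% of 11330 genes that rose. The untreated set matters for Nab1, which lay at 35.3 and 33.2 TPM in the other untreated parental libraries. Against those, Nab1 rose by 0.24 (adjusted p = 0.000193), Nab2 by 1.20, Egr1 by 5.98, Egr2 by 2.34 and Egr3 by 2.85. Library 1 of that set held 0.874 TPM of Egr2, so that entering its test depended on the treated libraries.

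LLC cells raised Egr1 to far lower levels and both Nab genes in each permeabilization arm. After AP20187 in MLKL cells Egr1 went from 4.33 and 3.80 to 41.9 and 39.0 TPM (3.03, SE 0.11, adjusted p = 8.01e-09), ranked 3 of 11166 genes. Egr3 went from 7.48 and 8.08 to 15.5 and 14.5 TPM (0.87, SE 0.10, adjusted p = 0.000218). Egr2, at 0.224 and 0.101 before and 1.19 and 0.967 TPM after, was too low to be tested. Nab1 (32.4 and 33.3 to 43.2 and 44.7 TPM; 0.41, SE 0.04) and Nab2 (56.3 and 53.9 to 75.2 and 70.5 TPM; 0.40, SE 0.04) rose alike, with adjusted p of 6.17e-05 and 0.000161. All 4 members tested rose, where 5.48% of genes did. No LLC parental cells given AP20187 are among the samples, so effects of the agent and of MLKL dimerization cannot be told apart here.

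The GSDMD arm of LLC cells was the only arm in which an Egr gene fell. Egr1 rose from 0.493 and 0.848 to 7.32 and 7.01 TPM (2.30, SE 0.11, adjusted p = 1.79e-09), but Egr3 went from 5.85 and 6.17 down to 4.26 and 3.80 TPM (-0.48, SE 0.10, adjusted p = 0.000818). Egr1 reached 1 TPM only after 4OHT, so that entering the test implied its rise. The fall of Egr3 was not called after quantile normalization (-0.09, adjusted p = 0.443), and the median change of all genes was -0.25. Nab1 rose from 21.0 and 19.6 to 35.6 and 34.3 TPM (0.75, SE 0.04, adjusted p = 5.14e-09) and Nab2 from 36.7 and 38.9 to 87.5 and 86.6 TPM (1.18, SE 0.04, adjusted p = 2.49e-10), in an arm where 27.9% of 10976 genes rose and 54.0% fell. Egr2 stayed under 0.55 TPM and was not tested. Parental LLC cells given 4OHT showed no call for any of the 4 members tested (limma), with 0.864% of 11110 genes passing. At an unadjusted p under 0.05 none of the 4 passed either, where 1271 of all genes did. Egr1 was 1.19 and 1.53 TPM without and 1.28 and 1.60 TPM with 4OHT. The response of GSDMD cells exceeded the parental one for Egr1 (2.25, SE 0.16), Nab1 (0.68, SE 0.06) and Nab2 (1.16, SE 0.06), and lay below it for Egr3 (-0.59, SE 0.14), with adjusted p from 2.06e-08 to 0.00273 and 71.8% of 11506 genes differing. The Egr3 difference, too, was not called after quantile normalization (-0.14, adjusted p = 0.406).

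Nab2 had its highest log2 change among all 15 arms with digitonin in the libraries labelled parental LLC, from 65.2 and 69.1 to 239 and 241 TPM (a ratio of 3.58; 1.82, SE 0.04, adjusted p = 4.54e-11), ranked 67 of 11112 genes. Egr1 went from 1.36 and 1.34 to 34.4 and 35.3 TPM (3.93, SE 0.11), ranked 2, and Nab1 from 29.2 and 28.7 to 49.5 and 50.6 TPM (0.77, SE 0.04). Treated cells thus held far more Nab2 than Egr1 transcript. Egr3 rose from 5.21 and 4.95 to 7.24 and 8.46 TPM (0.54, SE 0.10, adjusted p = 0.000828), and Egr2, at 1.07 and 0.704 TPM after digitonin, was not tested. All 4 members tested rose, where 20.3% of genes did. Against the other untreated parental set, which lacks the high Gsdmd level, Egr1 rose by 3.93, Nab1 by 1.08 and Nab2 by 2.00, while Egr3 changed by 0.05 and did not pass (adjusted p = 0.68).

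The same agents were given to NIH3T3 and LLC cells at the same doses and times, and responses were compared on the log2(TPM + 1) scale. Parental cells were given AP20187 only in NIH3T3 and 4OHT only in LLC, so no parental response was taken off. Egr2 entered these tests only or nearly only through the NIH3T3 libraries, where it is high, so its differences are given as values and support nothing: 2.96 for MLKL, 2.19 for GSDMD and 1.10 for digitonin. After AP20187 in MLKL cells the NIH3T3 response was larger by 4.33 for Egr1 and 1.93 for Egr3, and smaller for Nab1 (-0.40), among 12.9% of 12378 genes that differed. In GSDMD cells Egr3 differed most (2.72), and Nab1 (-0.39) and Nab2 (-0.74) rose less in NIH3T3, among 60.5% of 12340 genes. For digitonin Egr3 again differed most (2.07) and Nab2 rose less in NIH3T3 (-0.62), among 55.4% of 12184 genes. The LLC digitonin libraries held the high Gsdmd level, so effects of the line and of Gsdmd cannot be told apart there. The scale matters for low LLC values: as TPM ratios, Egr1 rose 9.23 times in NIH3T3 and 10.7 times in LLC GSDMD cells, and 24.2 and 25.8 times after digitonin against the untreated sets of that experiment. With a pseudocount of 0.1 the Egr1 differences were -0.08 (adjusted p = 0.742) and 0.00 (adjusted p = 0.995), and those of Egr2 0.77 (adjusted p = 0.0447) and 0.51 (adjusted p = 0.199). The digitonin comparison also depends on the untreated sets: against the other sets the difference was 2.05 for Egr1, 1.52 for Egr2, 2.80 for Egr3, -0.80 for Nab2 and, for Nab1, -0.84 in place of 0.06.

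The human lines differed widely in their Egr response to digitonin. In BxPC3 cells EGR1 went from 11.3 and 11.6 to 5962 and 5858 TPM (a ratio of 516; 8.89, SE 0.03, adjusted p = 7.28e-11), EGR3 from 0.584 and 0.467 to 684 and 665 TPM (8.79, SE 0.08) and EGR2 from 0.380 and 0.512 to 252 and 244 TPM (7.43, SE 0.10). These changes ranked 1, 2 and 7 of 13566 genes, but EGR2 and EGR3 reached 1 TPM only after digitonin, so that entering the test implied a difference. The fourth family member EGR4, near 0 in the mouse libraries (at most 0.130 TPM), rose from 0.439 and 0.512 to 105 and 99.1 TPM (6.13, SE 0.08, adjusted p = 1.69e-08). EGR4, too, reached 1 TPM only after digitonin, and the same limit applies to its test. NAB2 rose from 12.4 and 12.5 to 31.5 and 29.3 TPM (1.22, SE 0.07, adjusted p = 3.36e-06). In this arm 23.7% of genes rose, 56.9% fell, and the median change was -0.37. NAB1, at 35.4 and 35.7 before and 29.6 and 32.5 TPM after, was called lower (-0.19, SE 0.05, adjusted p = 0.0117), but its direction follows the scaling: it was 0.17 after quantile normalization and 0.24 after median centring. Without untreated library 2 the NAB1 call was lost (adjusted p = 0.0556). Without either treated library EGR2 and EGR3 were not tested, since only 1 library then reached 1 TPM.

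HT29 cells raised EGR1 at the same dose, while EGR2 and EGR3 ended near 1 TPM. EGR1 rose from 12.0 and 12.1 to 83.7 and 83.6 TPM (2.70, SE 0.03, adjusted p = 1.55e-08) and NAB2 from 16.1 and 14.5 to 23.4 and 21.7 TPM (0.53, SE 0.07, adjusted p = 0.000525), where 16.5% of 12193 genes rose. EGR2 (0.201 and 0.125 to 1.29 and 0.915 TPM) and EGR3 (0 in both untreated libraries, 0.880 and 0.697 TPM after digitonin) were too low to be tested. With no filter on low values they passed, at 0.85 (adjusted p = 0.00156) and 0.84 (adjusted p = 0.000467). NAB1 stood at 22.3 and 21.7 and then 23.9 and 23.6 TPM (0.11, 95% interval -0.02 to 0.23), and was called higher after quantile normalization (0.23) and median centring (0.27). The BxPC3 response was larger by 6.20 for EGR1 (adjusted p = 1.79e-08) and 0.70 for NAB2 (adjusted p = 0.00084), among 64.1% of 14393 genes that differed. EGR2 (6.58) and EGR3 (7.96) entered this comparison nearly only through treated BxPC3 libraries, so these values describe and support nothing. The NAB1 difference of -0.30 (adjusted p = 0.0105) was not called after quantile normalization (-0.05, adjusted p = 0.445) or median centring (-0.05, adjusted p = 0.538).

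Over the 15 treatment comparisons Egr1 rose in 13, and the other 2 were the parental cells given AP20187 or 4OHT. In LLC GSDMD cells Egr1 reached 1 TPM only after 4OHT, so that entering the test implied the rise. Egr2 could be tested in 10 and rose in 9. In NIH3T3 MLKL cells given AP20187 in complete medium, without siRNA or knockout, its entering the test depended on the treated libraries. Egr3 rose in 10 of 14, fell in LLC GSDMD cells and did not pass in both parental controls and in calcium-free medium. Nab2 rose in 12 and did not pass in those same 3 arms. Nab1 rose in 8 and was called lower in BxPC3, and after median centring or quantile normalization it rose in 11 and fell in none. Outside the parental controls, the share of all tested genes that rose ran from 2.27% in calcium-free medium to 39.3% with digitonin in NIH3T3 cells. In the parental controls 0.304% and 0.864% passed in either direction. How many genes rose in as many arms was not counted. For EGR2 and EGR3 in BxPC3 cells, entering the test implied the rise. Egr1 rose without Egr3 in calcium-free medium and against its fall in LLC GSDMD cells, and Nab2 rose by at least 1.00 in 5 arms, 3 of them of digitonin.

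The balance of activator to corepressor transcripts turned over in most arms. Summed Egr TPM per summed Nab TPM went from 0.132 ± 0.004 to 8.25 ± 0.352 in NIH3T3 MLKL cells (n = 2 each), from 0.254 ± 0.010 to 1.65 ± 0.066 in NIH3T3 GSDMD cells and from 0.244 ± 0.001 to 2.03 ± 0.046 with digitonin. In LLC cells the Nab transcripts stayed in excess: 0.137 ± 0.001 to 0.484 ± 0.015 with MLKL, 0.069 ± 0.004 to 0.150 ± 0.003 with digitonin, and 0.115 ± 0.007 to 0.0956 ± 0.002 with GSDMD. The other untreated parental sets stood at 0.103 ± 0.005 in NIH3T3 and 0.109 ± 0.010 in LLC cells. HT29 cells went from 0.327 ± 0.016 to 1.85 ± 0.044 and BxPC3 cells from 0.259 ± 0.003 to 111 ± 2.23. Egr1 made up 90.4% of the Egr sum in treated NIH3T3 MLKL cells and 31.0% in untreated ones, and 61.4% and 9.92% in LLC GSDMD cells. These ratios describe transcripts and were not tested.

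**Figure D4:**
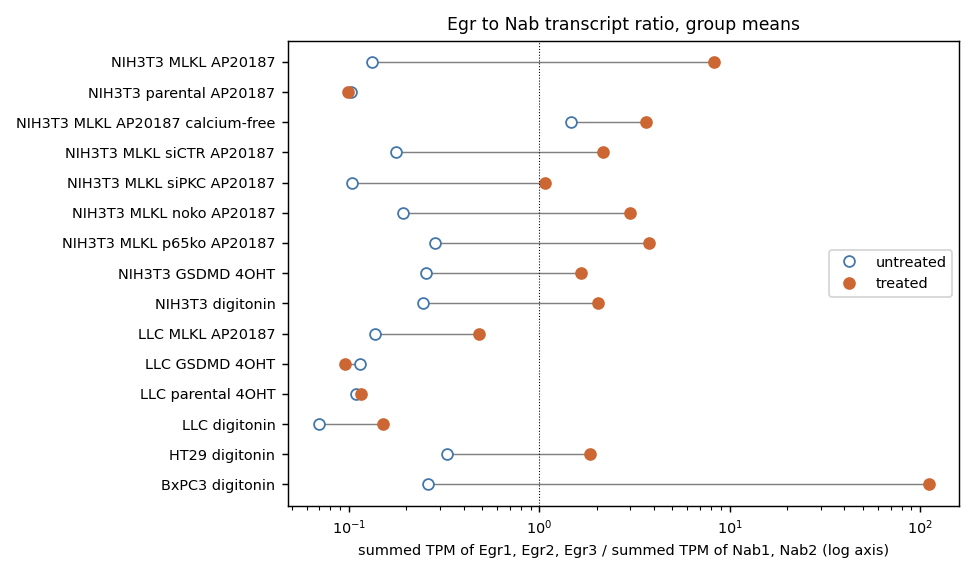
Summed TPM of Egr1, Egr2 and Egr3 divided by summed TPM of Nab1 and Nab2 (log axis), as group means before (open blue) and after (filled orange) each treatment; the dotted line marks equal sums. Treated NIH3T3 permeabilization arms lie between 1.07 and 8.25, no LLC arm reaches 1, and BxPC3 reaches 111.

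Genes described as Egr targets were followed as a list of 14 (among them Pdgfa, Pdgfb, Tgfb1, Fgf2, F3, Fn1, Icam1, Cd44, Vegfa, Cdk5r1, Thbs1 and Timp1), several of which also answer to other factors. In NIH3T3 MLKL cells 7 of 12 tested rose and none fell, where 15.8% of all genes rose, with a median change of 0.65 against -0.02 for all genes. Thbs1, which encodes a matrix glycoprotein, went from 92.7 to 293 TPM (1.65, SE 0.04), the tissue factor gene F3 from 30.6 to 91.1 TPM (1.54, SE 0.06) and the fibronectin gene Fn1 from 294 to 592 TPM (1.01, SE 0.04). In parental cells given AP20187 none rose and Vegfa fell (-0.19, adjusted p = 0.0391), where 0.304% of 11504 genes passed in either direction. The number of genes passing there went from 35 to 5 with only the libraries compared. In NIH3T3 cells 12 of 13 rose with GSDMD (20.0% of all genes; median 0.79 against -0.29) and 10 of 12 with digitonin (39.3% of all genes; median 1.18 against 0.02). In LLC cells 5 of 10 rose with MLKL (5.48% of all genes; median 0.18 against -0.01), 6 of 11 with GSDMD while 3 fell (27.9% and 54.0%; median 0.16 against -0.25), and 8 of 10 with digitonin (20.3%; median 0.40 against -0.06). Vegfa, the gene of an angiogenic growth factor, reached 263 TPM from 30.4 in LLC GSDMD cells (3.07, SE 0.04), the arm where Egr1 ended at 7.16 TPM. In the siCTR, siPKC, noko and p65ko arms 7 or 8 of 12 rose and 1 to 3 fell, where 8.99% to 13.7% of all genes rose, with medians of 0.38 to 0.61 against -0.22 to -0.14. In HT29 cells 4 of 11 rose and 3 fell (16.5% and 44.0% of all genes; median 0.01 against -0.16). In BxPC3 cells 8 of 13 rose and 5 fell (23.7% and 56.9%; median 0.50 against -0.37), among them F3, from 2913 to 639 TPM (-2.19, SE 0.06).

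Untreated cells without calcium had 3 of 12 targets higher and 3 lower, where 8.55% of all genes were higher and 27.7% lower: Fn1 went from 294 to 588 TPM (1.00, SE 0.04) and Thbs1 from 92.7 to 186 TPM (1.00, SE 0.04), while Vegfa was lower, at 76.5 against 106 TPM (-0.47, SE 0.04). AP20187 in calcium-free medium then raised 2 of 12, Timp1 (0.14) and Thbs1 (0.21), where 2.27% of all genes rose. The response was smaller than in complete medium for 7 of 12 and larger for none, where 11.1% of all genes were lower (median -0.70 against 0.03), with F3 at -1.51 (SE 0.09).

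The regulators upstream of Egr transcription form a list of their own. Of 15 genes for SRF, ternary complex factors, their MKL relatives, ERK pathway kinases and Creb1, 14 were tested in NIH3T3 MLKL cells: Srf rose from 19.7 to 27.1 TPM (0.44, SE 0.07, adjusted p = 7.11e-05), Mapk3, which encodes ERK1, fell (-0.20, SE 0.06, adjusted p = 0.0165) and 12 did not pass, where 15.8% of all genes rose and 16.5% fell. The ternary complex factor gene Elk4 rose in several other arms: after siCTR (0.71, SE 0.08), in NIH3T3 GSDMD (0.94, SE 0.08) and LLC GSDMD cells (1.09, SE 0.06) and with digitonin in LLC cells (0.45, SE 0.07). Its rise with digitonin in NIH3T3 cells (2.38, SE 0.08) starts from 2.38 TPM in the untreated set that stands apart, against 12.0 TPM in the other set. In LLC GSDMD cells 6 of 15 rose and 6 fell, beside 27.9% and 54.0% of all genes, and Srf fell from 48.7 to 27.7 TPM (-0.79, SE 0.04, adjusted p = 6.92e-09). In BxPC3 cells 2 of 15 rose and 10 fell, beside 23.7% and 56.9% of all genes.

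Of 11 genes for subunits of NuRD, the complex that works with Nab proteins, 3 rose in NIH3T3 MLKL cells, where 15.8% of all genes did, namely Mta2 (0.17), the remodeler gene Chd4 (0.19) and Gatad2b (0.20). In LLC MLKL cells 1 rose, Mta2 (0.09), where 5.48% of all genes did. Gatad2b rose in LLC GSDMD cells from 29.2 to 67.6 TPM (1.18, SE 0.06), where 4 subunits rose and 6 fell (27.9% and 54.0% of all genes), and in HT29 cells from 10.5 to 19.9 TPM (0.86, SE 0.05), where 1 rose and 7 fell (16.5% and 44.0% of all genes). In NIH3T3 GSDMD cells 2 rose and 9 fell (20.0% and 58.6% of all genes), with a median of -0.26 against -0.29 for all genes. In BxPC3 cells 5 rose and 6 fell (23.7% and 56.9% of all genes), among them MTA2 (-0.83, SE 0.04).

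Over the 26 mouse groups the genes most like each member were ranked among 10979 genes by Pearson correlation of mean log2(TPM + 1). The groups share lines and untreated cells, so these values describe the data set only. Closest to Egr1 were Zfp36 (0.956), Egr2 (0.947), Fos (0.939), Jun (0.937) and Gdnf (0.882), of which Fos and Jun encode the AP-1 factors and Zfp36 an mRNA decay factor. Egr2 lay closest to Btg2 (0.960), Zfp36 (0.957) and Egr1, followed by Gdnf (0.935) and Clcf1 (0.921). Egr3 lay closest to Rhob (0.906), Trib1 (0.901), Zfp36 (0.898), Rcan1 (0.886) and Fos (0.883). The corepressors had other neighbors: Nab1 Arhgap17 (0.859), Mef2d (0.858), Rest (0.844) and Hipk1 (0.835), and Nab2 Rnf19a (0.863), Lrrc8a (0.846), Vasn (0.844), Tmem170b (0.843) and Zswim4 (0.843). Among the members themselves Egr1 and Egr3 correlated at 0.828, Nab1 and Nab2 at 0.754, and each Egr gene with each Nab gene at 0.521 to 0.627.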

How the data were processed

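The deposited values are TPM. The submitters' processing notes name Salmon and the builds mm10 and hg19; the sources used here do not give the Salmon version, its index or the summing to genes by the authors. The unit was inferred from totals of 999910 to 1000000 per library. Depth is unknown and no counts were used. A human row, MIR6723, takes 79868 to 183398 TPM of each human library and so lowers all other human values.

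The members and gene lists were chosen with earlier results of these data known. The 36 comparisons (15 treated against own untreated libraries, 9 differences of responses, 11 of untreated and 1 of treated levels) were made by limma (3.58.1, trend, R 4.3.3) from log2(TPM + 1), in 1 model per mouse line, 1 for both human lines and a joint mouse model for comparisons between lines, with no block on replicate number. Testing a gene required 1 TPM or more in 2 or more of the libraries compared, and p-values were adjusted across the genes of each comparison (Benjamini-Hochberg, threshold 0.05). The fit was tested on simulated data. Named are the 5 members in every comparison, up to 4 genes per list and comparison by smallest p, label-check genes, and up to 5 genes most like each member among those reaching 5 TPM in a group; values of some list and neighbor genes are not reported here, while list counts and medians include all members. Lists were described by counts and medians. Replicate numbers were checked for pairing. The LLC MLKL libraries with AP20187 carry the same number in their titles and are numbered in accession order. Tables were read through data.table (version 1.17.8), and sequences and figures made with Python 3.11.15, pandas 2.3.3, numpy 2.4.6 and matplotlib 3.10.9. Alternatives were a pseudocount of 0.1, no filter, quantile normalization, median centring, a fit of only the libraries compared, a block on replicate number, and omission of each library in turn. Added after the data were seen were 3 others: removing small RNA and rRNA genes (454 mouse, 751 human), using the other untreated parental set for digitonin, and leaving the digitonin sets out of the comparison of untreated lines.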

Additional observations from a re-analysis of the deposited data

Results flagged for a closer look

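Responses of the 2 lines compared under the same agent, dose and time differed past the threshold for 18 results, each by the interaction test of the difference (limma, adjusted p from 7.01e-22 to 0.0105). In each comparison 5 members were tested. The 18 include Egr2 in the mouse comparisons and EGR2 and EGR3 in the human one, which support nothing, as stated below. Among all genes tested, 12.9% differed for AP20187, 60.5% for 4OHT, 55.4% for mouse digitonin and 64.1% for human digitonin. Positive values mean a larger response in the first line on the log2(TPM + 1) scale. For AP20187 in MLKL cells, NIH3T3 minus LLC, the differences of log2(TPM + 1) changes were 4.33 for Egr1, 2.96 for Egr2, 1.93 for Egr3 and -0.40 for Nab1. For 4OHT in GSDMD cells they were 0.87 for Egr1, 2.19 for Egr2, 2.72 for Egr3, -0.39 for Nab1 and -0.74 for Nab2. For digitonin they were 0.60 for Egr1, 1.10 for Egr2, 2.07 for Egr3 and -0.62 for Nab2. For digitonin in human cells, BxPC3 minus HT29, they were 6.20 for EGR1, 6.58 for EGR2, 7.96 for EGR3, -0.30 for NAB1 and 0.70 for NAB2. With a pseudocount of 0.1 the Egr1 differences for 4OHT and mouse digitonin were -0.08 (adjusted p = 0.742) and 0.00 (adjusted p = 0.995). Against the other untreated sets the Egr1 difference for mouse digitonin was 2.05. The LLC digitonin libraries held the high Gsdmd level, so effects of the line and of Gsdmd cannot be told apart in that comparison. The NAB1 difference was -0.05 after quantile normalization and -0.05 after median centring, and passed in neither. Egr2 in the mouse comparisons, and EGR2 and EGR3 in the human one, were tested only or nearly only through the libraries where they are high. Their differences therefore describe and support nothing. Groups hold 1 or 2 libraries, too few for single libraries to be tested as lying far from their group.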

How the results depend on the processing

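The 168 member results were recomputed under 7 alternatives, 14 of them also against the other untreated parental set and 4 without the untreated digitonin sets, and 29 changed call or direction in at least 1 of these. Directions reversed for NAB1 with digitonin in BxPC3 cells (0.17 after quantile normalization, 0.24 after median centring), for Egr1 in the GSDMD comparison of NIH3T3 with LLC (-0.0755 with a pseudocount of 0.1), for Nab1 in the digitonin comparison of NIH3T3 with LLC (-0.84 against the other untreated set, 0.06 otherwise), for untreated Egr3 in NIH3T3 against LLC (-0.36 without the digitonin sets) and for untreated EGR1 in BxPC3 against HT29 (0.0932 without small RNA genes, adjusted p = 0.0361). The number of members past the threshold moved by over 1.5 times in 6 cases without leaving a library out. For AP20187 in calcium-free medium it fell from 2 to 1 with a pseudocount of 0.1 and with only the libraries compared. It rose from 2 to 4 with no filter for digitonin in HT29 and for untreated BxPC3 against HT29. It fell from 2 to 0 for siPKC against siCTR with only the libraries compared, and from 4 to 2 for digitonin in NIH3T3 against LLC with a pseudocount of 0.1. Leaving out 1 library gave 1 to 2 members in the calcium-free arm, 3 to 5 for digitonin in BxPC3, and 2 to 4 for untreated GSDMD against parental LLC cells, where the Egr3 difference of -0.29 lost its call without parental library 1 (-0.15, adjusted p = 0.263), GSDMD library 1 (adjusted p = 0.119) or GSDMD library 2 (adjusted p = 0.0553). Leaving out libraries changed 16 of 834 member values in call and none in direction. Without parental NIH3T3 library 1 the untreated Nab1 difference between NIH3T3 and LLC (0.10) lost its call (0.07, adjusted p = 0.0571). Nab2 in the MLKL comparison of the mouse lines passed without NIH3T3 library 2 (-0.22) or LLC library 2 (-0.21) of the treated cells. Untreated Nab1 in GSDMD against parental NIH3T3 cells passed without parental library 1 (0.16) or GSDMD library 2 (0.15), and untreated Egr2 in p65ko against noko cells without noko library 2 (-0.36).

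Replicate numbers were not shown to pair libraries: the deviations of same-numbered libraries correlated at -0.05 to 0.13 over 13 experiments, 1 of them over 0.1. The replicate block changed 3 of 168 results: untreated Egr2 after siPKC lost its call (0.15, adjusted p = 0.406), as did untreated Egr3 in LLC GSDMD cells (-0.30, adjusted p = 0.0961), and untreated Nab1 in NIH3T3 GSDMD cells gained one (0.16, adjusted p = 0.0244). LLC MLKL cells had no block term of their own, and their values in the blocked fit carry only the blocks of the other LLC experiments, which change the spread.

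Counts of all genes past the threshold moved by over 1.5 times with only the libraries compared: from 3757 to 2087 in NIH3T3 MLKL cells, 659 to 75 in calcium-free medium, 35 to 5 in parental NIH3T3 and 96 to 27 in parental LLC cells, 969 to 54 for siPKC against siCTR, 501 to 768 for p65ko against noko, 1599 to 926 for MLKL between the mouse lines, 5261 to 3065 for untreated siPKC against siCTR and 4491 to 2774 for treated cells without and with calcium. The block moved the parental LLC count to 52. Leaving out 1 library moved 7 counts by that much. They fell to 373 to 428 from 844 in LLC MLKL, 16 to 30 in parental LLC, 9 to 19 in parental NIH3T3, 273 to 358 in calcium-free and 277 to 323 in p65ko against noko cells, whichever library was left out. NIH3T3 MLKL cells fell to 2489 without untreated library 1, and siPKC against siCTR to 527 without untreated siPKC library 1 and 582 without treated siCTR library 2.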
